A study of Capra hircus with 10 samples.

Results

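HOX genes encode homeodomain transcription factors that stand side by side in clusters named HOXA, HOXB, HOXC and HOXD, and their number within a cluster gives the paralogue group. The order of the genes along a cluster matches the order of their domains along the body axis, so that low numbers are called anterior and high numbers posterior. HOX proteins bind DNA together with PBX, MEIS and PKNOX proteins, and posterior genes such as HOXA9, HOXA10, HOXA11 and HOXA13 pattern the female reproductive tract from oviduct to vagina. In the present data, the HOX genes were all protein-coding symbols that begin with HOXA, HOXB, HOXC or HOXD and a number, which gave 37 of 20587 protein-coding symbols and 49 of 50146 transcripts. HOXA had 11 of these genes, HOXB 9, HOXC 9 and HOXD 8, and HOXB4 and HOXD4 were not analysed here.

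RNA was sequenced from whole ovaries of Anhui white goats, 5 in the luteal phase, when a corpus luteum makes progesterone, and 5 in the follicular phase, when follicles grow towards ovulation. The ovaries came from a slaughterhouse, 1 library was made from each, and neither the age of the goats nor whether a pair of ovaries shared a goat was given. The p-values therefore measure the spread between these ovaries. Expression was given as FPKM, mapped fragments scaled by the length of the transcript and by the total of the library, which allows levels to be compared between genes. The read depth of each single library, and so the count behind each FPKM, was unknown. The FPKM of the transcripts of a gene were summed, and each difference below is luteal minus follicular on the scale log2(FPKM + 0.1), tested with limma over 15359 genes that reached 0.1 FPKM in at least 5 of the 10 ovaries. A gene was called at an adjusted p below 0.05.

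The labels of the phases were first compared with marker genes. The 6 luteal cell markers measured of 8 listed, STAR and OXT among them, summed to 3886 to 5618 FPKM in the luteal ovaries and to 63.8 to 76.9 FPKM in the follicular ovaries, and all 6 passed the test as higher in the luteal phase. Follicular replicate 3 stood apart from the other follicular ovaries in several HOX genes and had the lowest follicular sum of the 8 granulosa markers, 213.9 FPKM against 398.9 to 1072 FPKM in the other follicular ovaries and 120.8 to 685.4 FPKM in the luteal ovaries. It was the lowest follicular ovary in 5 of these 8 markers, and INHBA, FOXL2 and AMHR2 were the exceptions. Its AMH, a hormone of granulosa cells of growing follicles, was 11.8 FPKM against 19.8 to 29.2 FPKM in the other follicular ovaries and 6.49 to 10.7 FPKM in the luteal ovaries. Results that rest on this ovary are given with and without it.

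The goat ovary expressed a restricted set of HOX genes, led by a pair from the centre of HOXD. HOXD8 was the most abundant, with 13.7, 15.6, 15.7, 15.5 and 15.1 FPKM in luteal replicates 1 to 5 and 15.2, 11.2, 14.8, 14.3 and 14.1 FPKM in follicular replicates 1 to 5. HOXD9 was next, at 8.35 to 11.9 FPKM in the luteal and 8.68 to 12.9 FPKM in the follicular ovaries. The ranges of HOXD8 and HOXD9 were apart in the luteal ovaries and overlapped in the follicular ovaries. HOXC6, HOXC9 and HOXC8 followed with means over the 10 ovaries of 6.29, 4.00 and 3.66 FPKM, then HOXB2 with 1.52 FPKM and HOXC4 with 1.51 FPKM. Over the 10 ovaries the ranges of HOXC6 and HOXC9, of HOXC9 and HOXC8, and of HOXB2 and HOXC4 overlapped, while HOXC8 stayed above HOXB2 in every ovary. Only these 7 genes had a mean of at least 1 FPKM. Another 13 genes had a mean below 0.1 FPKM, among them HOXA2, HOXB1, HOXB9, HOXD1 and HOXC12, and 17 genes were listed at 0 in at least 1 ovary.

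**Figure D1:**
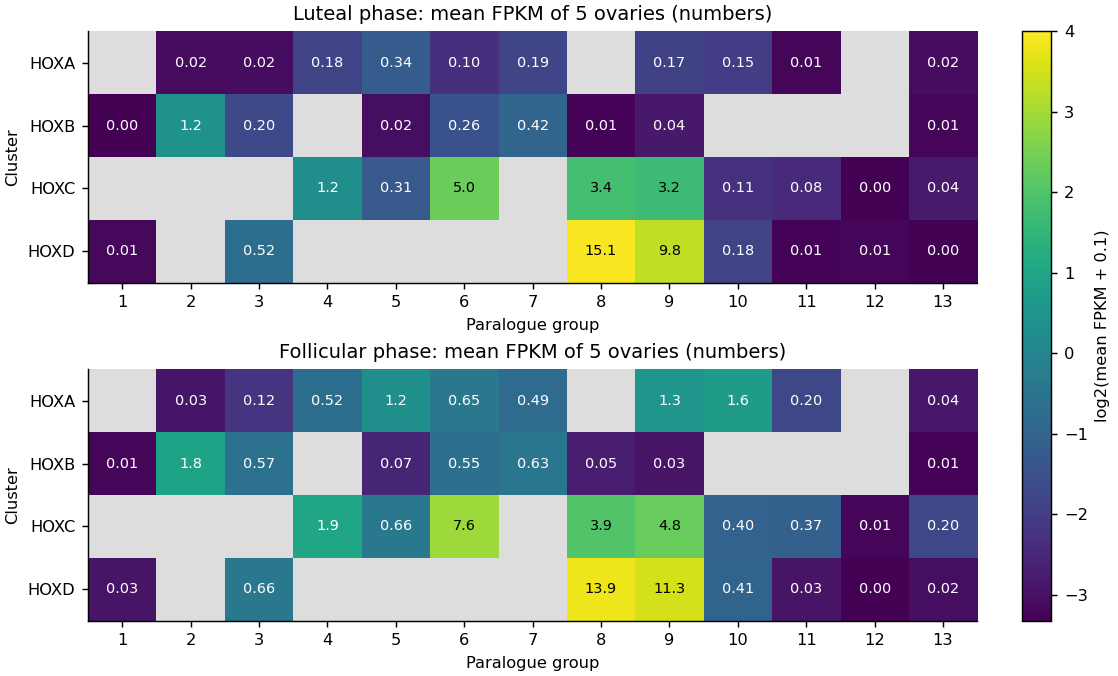
Mean FPKM of each HOX gene over the 5 luteal (top) and 5 follicular ovaries (bottom), with clusters as rows and paralogue groups as columns; colour is log2(mean FPKM + 0.1), and grey marks positions with no gene shown. HOXD8 and HOXD9 were the brightest positions in both phases, with HOXC6, HOXC8 and HOXC9 next, and the HOXA row was darker in the luteal phase.

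The map of mean levels shows that no cluster was expressed along its whole length. Within HOXD the level was high at paralogue groups 8 and 9 and below 1 FPKM in every ovary at group 10, where HOXD10 had 0.0351 to 0.345 FPKM in the luteal and 0.133 to 0.750 FPKM in the follicular ovaries. HOXD11, HOXD12 and HOXD13, the genes that pattern the distal limb and the external genitalia, did not pass 0.0825 FPKM in any ovary. Group 13 as a whole, HOXA13, HOXB13, HOXC13 and HOXD13 together, summed to 0.0137 to 0.132 FPKM in the luteal and 0.0442 to 0.473 FPKM in the follicular ovaries.

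Of the 37 HOX genes, 22 passed the filter and were tested. The test called 10 of them, 45.5%, as lower in the luteal phase and 0 as higher. Over all 15359 genes tested, 43.7% were called in either direction, with 27.8% lower and 15.9% higher in the luteal phase. At an unadjusted p below 0.05, limma gave 16 HOX genes, all lower in the luteal phase, against 52.2% of all genes in either direction and 33.8% lower. The difference was negative in 21 of the 22, HOXD8 being the exception, and the median difference over the 22 was -0.86 against -0.14 over all genes. In RNA from whole ovaries, fewer cells of a type and less RNA per cell cannot be told apart.

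The filter itself touched these counts. In 13 of the 22 genes every ovary reached 0.1 FPKM, and 5 of the called genes were among them, whereas 5 tested genes, HOXA6, HOXA9, HOXA10, HOXC10 and HOXC11, reached it in 2 luteal ovaries and in 4 or 5 follicular ovaries and so passed mainly through the follicular phase. The scaling moved the split of the calls over all genes. The share of calls over all genes that were lower in the luteal phase was 63.7% on FPKM, 51.2% when the ovaries were set to a common median and 47.9% on TPM, which set the sum of each ovary to the same total. With a common median 10 HOX genes were called against 19.9% of all genes lower in the luteal phase, with quantile normalization 11 against 24.4%, and with TPM 11 against 16.7%, all of them lower in the luteal phase. The median differences moved as well, from -0.86 to -0.78 for the HOX genes and from -0.14 to -0.05 for all genes with a common median, to -0.71 and -0.09 with quantile normalization, and to -0.89 and -0.05 on TPM. On TPM the filter also kept other genes, 15969 in all and 25 HOX genes, and of its 11 calls 9 were among the 10 on FPKM, HOXB6 was lost, and HOXA3 and HOXC13 were genes that the filter on FPKM had left out.

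**Figure D2:**
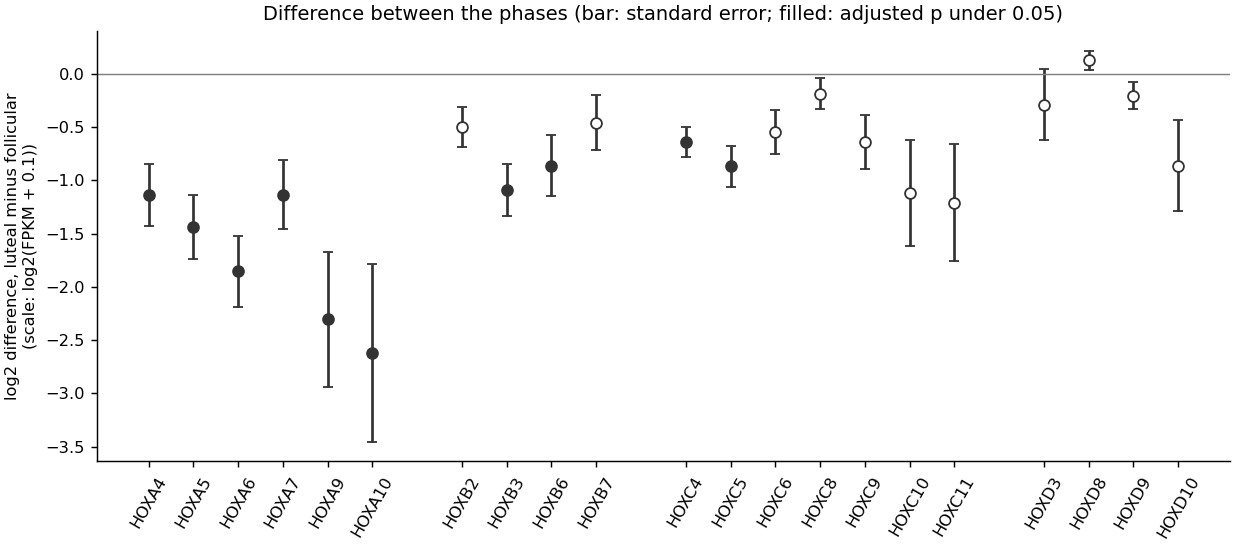
Difference of the HOX genes tested and reported, luteal minus follicular on the scale log2(FPKM + 0.1), in order along each cluster; bars are standard errors and filled points have an adjusted p below 0.05. The HOXA genes shown ran from -1.14 at HOXA4 and HOXA7 to -2.62 at HOXA10, while HOXD8, HOXC8, HOXD9 and HOXD3 lay nearest to 0, between 0.12 and -0.29.

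HOXA was the cluster with the most calls. Of its 7 tested genes, 6 were lower in the luteal phase, beside 27.8% of all genes, and all 7 had an unadjusted p below 0.05 in limma, beside 33.8% of all genes lower. In the plot of differences HOXA6, HOXA9 and HOXA10 had the largest sizes, -1.85 to -2.62, and they are the HOXA genes that passed the filter mainly through the follicular phase. The size depended on the pseudocount at these low levels. From a pseudocount of 1 to one of 0.01, the difference ran from -0.57 to -2.65 for HOXA6, from -0.92 to -3.09 for HOXA9 and from -1.07 to -3.80 for HOXA10, and with a pseudocount of 1 HOXA5 (-0.66) was ahead of HOXA6. All 6 genes were called with each pseudocount. The genes of HOXA together summed to 1.45 ± 0.716 FPKM in the luteal and 6.62 ± 2.67 FPKM in the follicular phase (SD, n = 5 each), which was 1.78 to 5.41% of all HOX FPKM in the luteal ovaries and 13.4 to 14.6% in the follicular ovaries other than replicate 3, where it was 3.41%.

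HOXA4, a gene of the neck and upper thorax in the embryo, had 0.167, 0.111, 0.219, 0.0858 and 0.337 FPKM in luteal replicates 1 to 5 and 0.826, 0.566, 0.354, 0.566 and 0.304 FPKM in follicular replicates 1 to 5. Luteal replicate 5 lay above follicular replicate 5, so the phases overlapped. The difference was -1.14 (SE 0.29, adjusted p = 0.0092).

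HOXA5, best known from the patterning of lung and cervical skeleton, had 0.231, 0.438, 0.366, 0.306 and 0.348 FPKM in the luteal ovaries and 1.12, 1.25, 0.419, 1.33 and 1.70 FPKM in the follicular ovaries. Follicular replicate 3 fell among the luteal values, while the other follicular ovaries were all above them. The difference was -1.44 (SE 0.30, adjusted p = 0.0031), and -1.73 without follicular replicate 3 (adjusted p = 0.00016), and the follicular mean was 3.45 times the luteal mean.

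HOXA6 had 0.0248, 0.106, 0.181, 0.0814 and 0.0895 FPKM in the luteal and 0.887, 0.477, 0.220, 0.738 and 0.907 FPKM in the follicular ovaries. Every follicular ovary was above every luteal one. Among the 22 tested HOX genes 4 showed this separation, HOXA6, HOXB3, HOXC4 and HOXC5, against 17.2% of all genes tested. HOXA6 had the smallest adjusted p of the HOX genes, with a difference of -1.85 (SE 0.34, adjusted p = 0.0013), which was -2.13 without follicular replicate 3 (adjusted p = 0.00034).

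HOXA7 had 0.0570, 0.305, 0.368, 0.0938 and 0.115 FPKM in the luteal and 0.482, 0.518, 0.279, 0.565 and 0.602 FPKM in the follicular ovaries. Luteal replicates 2 and 3 were above follicular replicate 3, and the other ovaries were apart by phase. The difference was -1.14 (SE 0.32, adjusted p = 0.0151), and -1.29 without follicular replicate 3 (adjusted p = 0.0126).

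HOXA9, which in the embryo marks the part of the Müllerian duct that becomes the oviduct, had 0.0482, 0.463, 0.222, 0.0211 and 0.0705 FPKM in the luteal ovaries. In the follicular ovaries it had 1.63, 1.36, 0.1, 1.88 and 1.55 FPKM. All follicular ovaries but replicate 3 were at 1.36 FPKM or more, above the highest luteal value, and replicate 3 was below luteal replicates 2 and 3. The difference was -2.31 (SE 0.64, adjusted p = 0.0130), and without follicular replicate 3 it was -2.92 (adjusted p = 0.00057).

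HOXA10, the gene of the uterine part of the Müllerian duct and of endometrial receptivity, was the most abundant HOXA gene, with 2.12, 1.68, 0.0129, 1.96 and 2.04 FPKM in the follicular ovaries. In the luteal ovaries it had 0.0128, 0.577, 0.146, 0 and 0.0205 FPKM, where 0 means that it was listed at 0. Follicular replicate 3 lay among the luteal values, and luteal replicate 2 was the highest of the luteal ovaries. HOXA10 had the largest difference of the HOX genes called, -2.62 (SE 0.83, adjusted p = 0.0255), and -3.45 without follicular replicate 3 (adjusted p = 0.00069). The call was lost without luteal replicate 1, 4 or 5 or follicular replicate 1, 4 or 5, with adjusted p from 0.0528 to 0.0614, so it was less firm than the calls of HOXA6 and HOXA9.

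**Figure D3:**
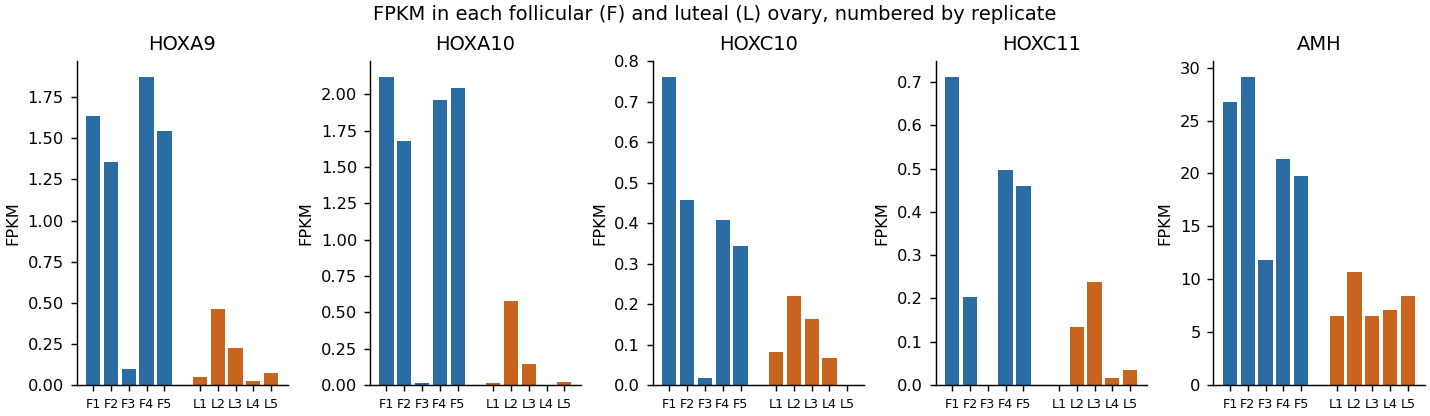
FPKM of HOXA9, HOXA10, HOXC10, HOXC11 and the granulosa marker AMH in each follicular (F, blue) and luteal (L, orange) ovary, numbered by replicate. In follicular replicate 3 the 4 HOX genes were at 0.1 FPKM or below, and AMH was 11.8 FPKM, the lowest follicular value but above every luteal one.

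HOXC10 and HOXC11, posterior genes of HOXC, showed the same split between follicular replicate 3 and the other follicular ovaries, as the bars by ovary show. HOXC10 had 0.344 to 0.763 FPKM in the other follicular ovaries, 0.0166 FPKM in replicate 3 and 0 to 0.220 FPKM in the luteal ovaries. HOXC11 had 0.203 to 0.713 FPKM in the others and was listed at 0 in replicate 3, with 0 to 0.238 FPKM in the luteal ovaries. The differences were -1.12 for HOXC10 (adjusted p = 0.0871) and -1.21 for HOXC11 (adjusted p = 0.0939), so neither was called. Without follicular replicate 3 both were called, with -1.58 (adjusted p = 0.0061) and -1.69 (adjusted p = 0.0095).

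HOXA11, of the lower uterus and cervix, was likewise listed at 0 in follicular replicate 3 and had 0.161 to 0.295 FPKM in the other follicular ovaries. Its luteal values were 0, 0.0140, 0.0350, 0 and 0 FPKM, and it did not pass the filter. Follicular replicate 3 was not low in the HOX genes as a whole. It was the lowest follicular ovary in 8 of the 22 tested HOX genes and the highest in 5, among them HOXC6, HOXC4, HOXC8 and HOXD3, while over all genes tested it was the lowest in 17.0% and the highest in 17.2%. Among the posterior genes it was the second highest follicular ovary in HOXD9 (12.3 FPKM) and HOXC13 (0.229 FPKM) and the median one in HOXC9 (4.70 FPKM). It was the lowest follicular ovary in HOXD10 (0.133 FPKM), as in HOXA9, HOXA10, HOXA11, HOXC10 and HOXC11. The part that the makeup of this ovary had in its HOX levels was not tested.

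Genes of the oviduct and the uterus were looked at because the posterior HOX genes mark those organs. Of 8 oviduct epithelium markers 7 were measured and 4 were above 0 in all ovaries, with sums of 1.13 to 2.59 FPKM in the luteal and 1.67 to 3.68 FPKM in the follicular ovaries. PAX2, a defining factor of that epithelium, was at most 0.0590 FPKM and listed at 0 in 2 luteal and 2 follicular ovaries. CAPS was called, out of 3 markers tested, and was lower in the luteal phase with no overlap (0.137 to 0.325 FPKM against 0.349 to 0.663 FPKM, difference -0.95, adjusted p = 0.0055), whereas SNTN, which was not tested, had 0.0676 to 0.532 FPKM in the luteal and 0 to 0.0842 FPKM in the follicular ovaries. The ciliary factor FOXJ1 was 0.284 FPKM in follicular replicate 2 and 0.467 FPKM in replicate 5, and 0 to 0.0710 FPKM in the other 8 ovaries. Of 6 uterus markers 5 were measured and 4 were above 0 in all ovaries, with sums of 187.3 to 384.4 FPKM in the luteal and 12.5 to 24.5 FPKM in the follicular ovaries. Most of the sum was SPP1, a secreted phosphoprotein that many tissues make, with 183.4 to 379.7 FPKM in the luteal and 8.75 to 19.9 FPKM in the follicular ovaries (difference 4.5, adjusted p = 2.7e-07). MSX1, MSX2 and LTF were tested and not called, and the endometrial secretory gene PAEP was listed at 0 in every luteal ovary and in follicular replicates 3 to 5. The part of these cells in the HOX values was not tested.

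**Figure D4:**
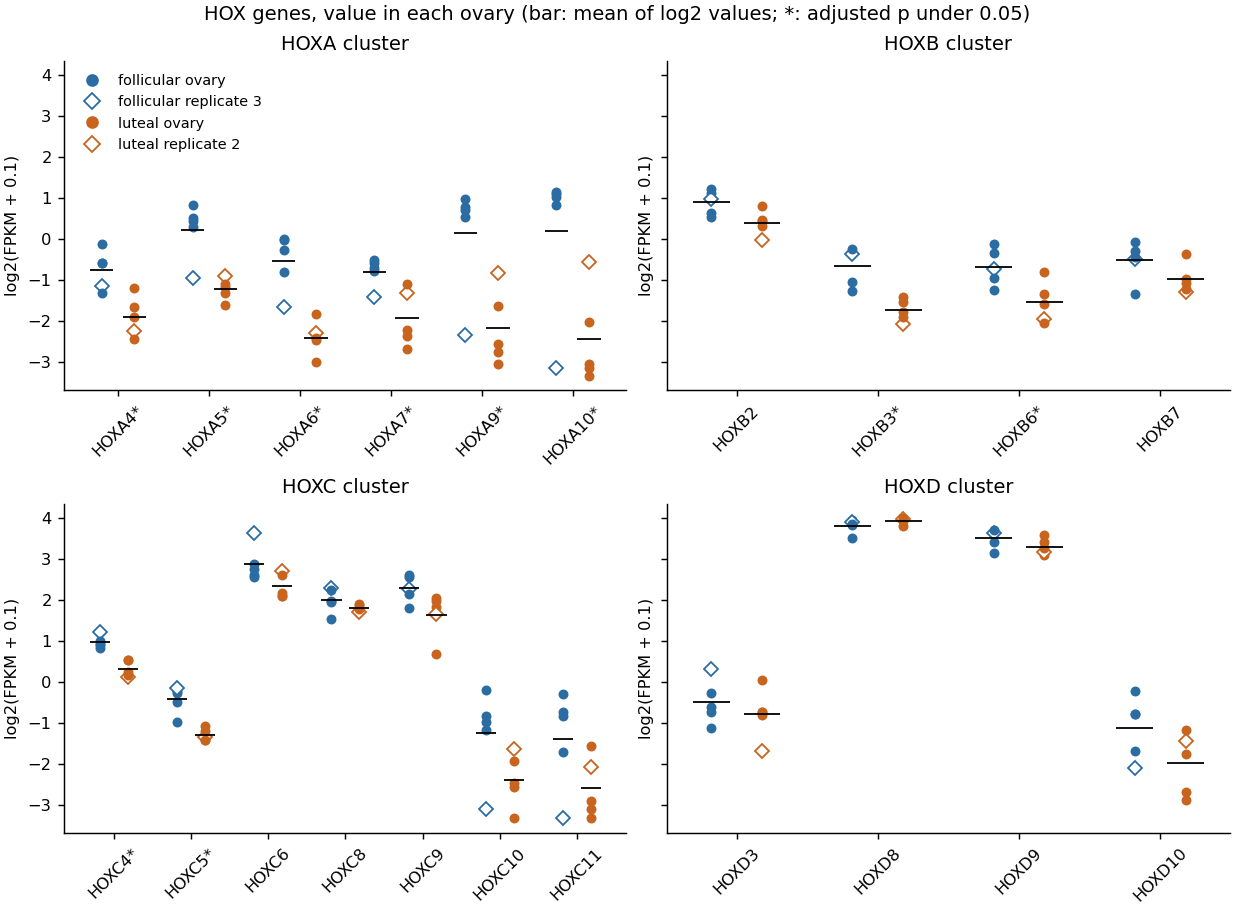
Value of the tested and reported HOX genes in each ovary on the scale log2(FPKM + 0.1), by cluster and in order along it; black bars are means of 5 ovaries, open diamonds mark follicular replicate 3 (blue) and luteal replicate 2 (orange), and an asterisk marks an adjusted p below 0.05. In HOXA9 and HOXA10 follicular replicate 3 lay among the luteal ovaries and luteal replicate 2 was the highest luteal ovary, while in HOXC4 and HOXC6 follicular replicate 3 was the highest of all.

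In HOXB the genes tested were HOXB2, HOXB3, HOXB6 and HOXB7, and 2 of these 4 were lower in the luteal phase, beside 27.8% of all genes. At an unadjusted p below 0.05 limma gave 3 of the 4, beside 33.8% of all genes lower. HOXB3, a gene of hindbrain and pharyngeal arches, had 0.275, 0.140, 0.246, 0.167 and 0.195 FPKM in the luteal and 0.691, 0.319, 0.682, 0.389 and 0.750 FPKM in the follicular ovaries. The phases did not overlap, and the difference was -1.09 (SE 0.24, adjusted p = 0.0043). HOXB6 had 0.478, 0.161, 0.295, 0.141 and 0.236 FPKM in the luteal and 0.817, 0.327, 0.502, 0.418 and 0.688 FPKM in the follicular ovaries, with luteal replicate 1 above follicular replicates 2 and 4. Its difference was -0.86 (SE 0.29, adjusted p = 0.0305), and the call was lost without luteal replicate 2, 4 or 5 or follicular replicate 1, 3 or 5 (adjusted p from 0.0521 to 0.0758) and on TPM (adjusted p = 0.0624).

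HOXB2, the most abundant HOXB gene, had 1.64, 0.884, 1.16, 1.26 and 1.27 FPKM in the luteal and 2.08, 1.45, 1.89, 1.35 and 2.24 FPKM in the follicular ovaries. Luteal replicate 1 lay within the follicular range and the others below it. The difference of -0.50 just missed the threshold (SE 0.19, adjusted p = 0.0517) and passed it without luteal replicate 1 or follicular replicate 2 or 4 (adjusted p from 0.0285 to 0.0385). It also passed with a pseudocount of 1, the filter of 0.5 FPKM, quantile normalization, no variance trend or the replicate number as a block, the replicate block (lowest adjusted p = 0.0294), while over all alternatives the adjusted p reached 0.189. HOXB7 had a difference of -0.46 (adjusted p = 0.172) and was called without follicular replicate 2 alone (adjusted p = 0.0294). HOXB5, HOXB8, HOXB9 and HOXB13 did not exceed 0.108 FPKM in any ovary, and HOXB1 was listed at 0 in all 5 luteal ovaries and in 3 follicular ones.

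HOXC held abundant genes with modest differences, and 2 of its 7 tested genes were lower in the luteal phase, beside 27.8% of all genes, and 6 of the 7 were lower at an unadjusted p below 0.05 in limma, beside 33.8% of all genes. HOXC4 had 1.34, 0.987, 1.35, 1.02 and 1.08 FPKM in the luteal and 1.79, 1.65, 2.21, 1.75 and 1.89 FPKM in the follicular ovaries. HOXC5 had 0.275, 0.294, 0.375, 0.334 and 0.275 FPKM in the luteal and 0.733, 0.758, 0.797, 0.410 and 0.611 FPKM in the follicular ovaries. In both genes every follicular ovary was above every luteal one, and follicular replicate 3 was the highest. The difference was -0.64 for HOXC4 (SE 0.14, adjusted p = 0.0039) and -0.87 for HOXC5 (SE 0.19, adjusted p = 0.0038).

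HOXC6, the third most abundant HOX gene, had 4.13, 6.41, 5.98, 4.37 and 4.19 FPKM in the luteal and 5.98, 7.18, 12.3, 6.58 and 5.80 FPKM in the follicular ovaries. Luteal replicates 2 and 3 reached into the follicular range, and follicular replicate 3 was far above it. The difference was -0.55 (SE 0.21, adjusted p = 0.0519), and without follicular replicate 3 it was -0.36 (adjusted p = 0.0891). It passed the threshold without luteal replicate 2 or 3 or follicular replicate 5 (adjusted p from 0.0368 to 0.0459), with the filter of 0.5 FPKM (adjusted p = 0.0494), with the replicate block (adjusted p = 0.0121) and without follicular replicate 3 and luteal replicate 2 together (adjusted p = 0.0363). HOXC9, a thoracic gene that represses forelimb fates, had 3.46, 3.05, 4.04, 1.49 and 3.80 FPKM in the luteal and 5.82, 3.40, 4.70, 6.0 and 4.29 FPKM in the follicular ovaries. Luteal replicate 4 was the lowest by far, and the phases overlapped at follicular replicate 2. Its difference was -0.64 (SE 0.26, adjusted p = 0.0609), and without luteal replicate 4 it was -0.40 (adjusted p = 0.0949). It passed the threshold without luteal replicate 3 or follicular replicate 2 (adjusted p = 0.0444 and 0.0360). HOXC8 had 3.14 to 3.63 FPKM in the luteal and 2.78 to 4.78 FPKM in the follicular ovaries, with a difference of -0.19 (adjusted p = 0.307) and of -0.11 without follicular replicate 3 (adjusted p = 0.560). Without follicular replicate 5 it was -0.30 (adjusted p = 0.0579).

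HOXD had no call among its 4 tested genes, and 0 of them had an unadjusted p below 0.05 in limma, beside 27.8% and 33.8% of all genes lower at those thresholds. HOXD8 had a difference of 0.12 (SE 0.09, adjusted p = 0.287), which was 0.05 without follicular replicate 2 (adjusted p = 0.587). With a common median it was 0.21 (adjusted p = 0.0747) and on TPM 0.22 (adjusted p = 0.130). With a common median HOXD8 was the 1 HOX gene higher in the luteal phase at an unadjusted p below 0.05 in limma. HOXD9 had a difference of -0.21 (SE 0.13, adjusted p = 0.210). HOXD9 passed the threshold without follicular replicate 2 alone (-0.30, adjusted p = 0.0490). HOXD10 had a difference of -0.86 (SE 0.43, adjusted p = 0.121), which was -1.11 without follicular replicate 3 (adjusted p = 0.058). HOXD3 had a difference of -0.29 (SE 0.33, adjusted p = 0.495), which was -0.09 without follicular replicate 3 (adjusted p = 0.835). Without luteal replicate 5 the HOXD3 difference was -0.50 (adjusted p = 0.231). The sum over HOXD was 25.7 ± 2.08 FPKM in the luteal and 26.4 ± 3.48 FPKM in the follicular ovaries (SD, n = 5 each).

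The other clusters summed to 13.3 ± 1.84 FPKM against 19.8 ± 3.25 FPKM for HOXC and to 2.21 ± 0.486 FPKM against 3.70 ± 0.978 FPKM for HOXB, luteal before follicular (SD, n = 5 each). The ranges of the HOXC sum did not overlap, with 10.9 to 15.8 FPKM in the luteal and 16.5 to 25.0 FPKM in the follicular ovaries, and those of HOXB did. All 37 HOX genes summed to 42.6 ± 3.71 FPKM in the luteal and 56.6 ± 5.49 FPKM in the follicular ovaries. HOXD8 and HOXD9 together made up 56.5 to 64.7% of this sum in the luteal and 42.0 to 46.9% in the follicular ovaries, a share that also depends on the levels of all other HOX genes. No test was made on these sums and shares.

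By position along the clusters, 1 of 4 tested genes of the anterior groups 1 to 3 was called, 7 of 11 of the central groups 4 to 8 and 2 of 7 of the posterior groups 9 to 13, beside 27.8% of all genes lower in the luteal phase. In group 9, HOXA9 was called at -2.31, while HOXC9 had -0.64 and HOXD9 -0.21, neither of them called, and in group 10 HOXA10 was called and HOXC10 and HOXD10 were not. The differences between paralogues were not tested. In group 5 both tested genes, HOXA5 and HOXC5, and in group 4 both tested genes, HOXA4 and HOXC4, were lower in the luteal phase. In group 8, HOXC8 and HOXD8 were both uncalled.

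The 15 HOX genes that did not pass the filter had at most 0.357 FPKM in any ovary, that value being HOXC13 in follicular replicate 5, and the luteal mean was the lower in 12 of them. When no filter was used, 15 HOX genes were called, all lower in the luteal phase, against 21.5% of 19785 genes. The additional genes were HOXA3, HOXA11, HOXB5, HOXB8 and HOXC13. HOXA3 had 0 to 0.0418 FPKM in the luteal and 0.0551 to 0.148 FPKM in the follicular ovaries with no overlap (difference -0.87, SE 0.16, adjusted p = 0.0018). HOXC13 had 0.0137 to 0.0779 FPKM in the luteal and 0.0442 to 0.357 FPKM in the follicular ovaries (difference -1.0, SE 0.27, adjusted p = 0.0163).

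Of the 37 genes, 8 had more than 1 transcript, and the transcripts were tested one by one among 32842 transcripts. Of 29 HOX transcripts tested, 6 were lower in the luteal phase and 0 higher, against 9.82% and 7.47% of all transcripts, and 15 had an unadjusted p below 0.05, all lower, against 31.6% of all transcripts in either direction and 19.7% lower at that threshold. The count fell to 2 without luteal replicate 4 or with the replicate block and to 3 with a common median, with quantile normalization or on TPM, and with the filter of 0.5 FPKM limma called 0 of 11, of which 4 had an unadjusted p below 0.05. The shares of all transcripts called under these alternatives are not given here. The 6 called were the single transcripts of HOXA4, HOXA5, HOXA6, HOXA9 and HOXC5 and 1 of the 4 transcripts of HOXC6, XM_018047653.1. That transcript had 0.226 to 0.416 FPKM in the luteal and 0.458 to 0.884 FPKM in the follicular ovaries. The main HOXC6 transcript, XM_018047654.1, had 1.87 to 4.87 FPKM and 3.31 to 9.77 FPKM (difference -0.71, adjusted p = 0.150), and XM_005679865.3 had 0.585 to 1.70 FPKM and 0.494 to 1.09 FPKM, with a difference of 0.51 (adjusted p = 0.331).

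For HOXC4 the sum over transcripts was steadier than its parts. XM_018047648.1 carried most of its FPKM in 9 ovaries, but in follicular replicate 2 it had 0.0828 FPKM and XM_018047649.1 had 1.52 FPKM. For HOXB3, XM_018064936.1 had 0.563, 0.643 and 0.458 FPKM in follicular replicates 1, 3 and 5, was listed at 0 in follicular replicates 2 and 4, and had at most 0.0342 FPKM in the luteal ovaries. XM_018064935.1 of HOXB3 had 0.140 to 0.275 FPKM in the luteal and 0.0393 to 0.389 FPKM in the follicular ovaries. How fragments shared by such transcripts were divided was set by the estimates of the authors.

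Noncoding RNAs also lie within the clusters, and by the gene order of the RefSeq annotation (assembly ARS1.2) 8 such genes other than miRNAs stood between HOX genes. Of these, 5 had a transcript in the data, 8 transcripts in all, and 7 were tested. LOC108635846, beside HOXA2, had 0.0865, 0.317, 0.348, 0.121 and 0.485 FPKM in the luteal and 1.52, 1.16, 0.683, 1.10 and 0.929 FPKM in the follicular ovaries, with no overlap. The difference of its transcript XR_001917967.1 was -1.75 (SE 0.37, adjusted p = 0.00925). LOC102190854, between HOXC9 and HOXC10, had 0.730 to 1.19 FPKM in the luteal and 1.41 to 2.16 FPKM in the follicular ovaries (XR_001295661.2, difference -0.91, SE 0.21, adjusted p = 0.0143), a call that was lost with the replicate block (adjusted p = 0.0541) and without follicular replicate 3 and luteal replicate 2 together (adjusted p = 0.0608). Of the 7 tested transcripts, 2 were thus lower in the luteal phase and 0 higher, beside 9.82% and 7.47% of all transcripts. The other 5 tested transcripts were not called on FPKM. Among them LOC108635995, between HOXC8 and HOXC9, had 1.32 to 2.29 FPKM in the luteal and 0.917 to 1.18 FPKM in the follicular ovaries, a positive difference of 0.58 (adjusted p = 0.0827), and its transcript XR_001918029.1 was called higher in the luteal phase with a common median (0.68, adjusted p = 0.0441) and with quantile normalization (0.68, adjusted p = 0.0380).

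Transcripts of uncertain coding potential (TUCPs) are a class of their own in these data. The lists of the study place TUCP_001109 beside HOXA3 and TUCP_001262 beside HOXB6 by co-expression, a choice made on these same ovaries and thus no independent evidence. TUCP_001109 had 125.8, 97.4, 86.6, 42.4 and 111.3 FPKM in the luteal and 230.4, 197.8, 151.4, 198.0 and 233.2 FPKM in the follicular ovaries (difference -1.20, SE 0.26, adjusted p = 0.0122). TUCP_001262 had a difference of -0.53 (adjusted p = 0.0738) and was called with the replicate block (adjusted p = 0.0302) and without luteal replicate 1 (adjusted p = 0.0411).

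The cofactors of HOX proteins were then listed. The PBX, MEIS and PKNOX genes form the TALE class, whose proteins sharpen the choice of DNA sites by HOX proteins, and MEIS2 was the most abundant of them. The 8 tested cofactors of 9 listed had means over the 10 ovaries of 3.08 to 19.7 FPKM, and PBX4, not tested, was at most 0.0629 FPKM. Of the 8, 6 were called, all lower in the luteal phase, with a median difference of -0.47, beside 27.8% of all genes lower. PKNOX2 had 2.76 to 3.93 FPKM in the luteal and 5.27 to 7.75 FPKM in the follicular ovaries (difference -0.79, adjusted p = 0.0012), PKNOX1 a difference of -0.61 (adjusted p = 0.0044), MEIS2 of -0.56 (adjusted p = 0.0309) and MEIS3 of -0.52 (adjusted p = 0.0274). MEIS1 and PBX2 were the others called, and PBX3 (-0.21, adjusted p = 0.0519) was not. The count was 3 with a common median, 2 on TPM and 3 without luteal replicate 2 or 5 or follicular replicate 3 or 5, all lower in the luteal phase. Of all genes, 19.9% were lower with a common median and 16.7% on TPM.

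Chromatin regulators that keep HOX clusters silent or active were compared by list. Of the 27 Polycomb genes, which silence HOX genes, 15 were called, all lower in the luteal phase (median difference -0.27). PHC1 (-0.94, adjusted p = 0.00075), the histone methyltransferase EZH2 (-0.85, adjusted p = 0.0012), PCGF2 (-0.72, adjusted p = 0.0226) and CBX2 (-0.66, adjusted p = 0.00078) had the largest differences, and the most abundant, RBBP4, had -0.08 (adjusted p = 0.268). Of the 15 Trithorax genes, which keep HOX genes active, 10 were called, all lower (median -0.35). They were led by the histone demethylases KDM6A (-0.59, adjusted p = 0.00020) and KDM6B (-0.58, adjusted p = 0.0305), with WDR5 (-0.54, adjusted p = 0.0062) and MEN1 (-0.51, adjusted p = 0.0088) next. The most abundant, DPY30, had -0.09 (adjusted p = 0.509). These counts stand beside 27.8% of all genes lower in the luteal phase.

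Retinoic acid is the textbook inducer of HOX genes, and the genes that make, carry and sense it were compared by list. CRABP1, which binds retinoic acid in the cytoplasm, had 195.8, 292.9, 252.0, 999.2 and 789.9 FPKM in the luteal ovaries and 0.724 to 2.92 FPKM in the follicular ovaries (difference 8.23, SE 0.49, adjusted p = 5.6e-07). ALDH1A1, which makes retinoic acid and was the most abundant of the list, had 353.8 to 777.7 FPKM and 125.8 to 154.5 FPKM (difference 1.87, SE 0.20, adjusted p = 5.0e-05). The receptors RXRA (-0.44, adjusted p = 0.0147), RXRB (-0.39, adjusted p = 0.0012) and RARA (-0.31, adjusted p = 0.0401) were lower in the luteal phase. Of 12 tested genes of this list, 3 were lower and 2 higher, shares near the 27.8% and 15.9% of all genes, and 7 were not called. CDX1, CDX2 and CDX4, further inducers of HOX genes, did not exceed 0.0631 FPKM in any ovary. Over these inputs and the chromatin regulators together, 30 of 54 tested genes were called, 28 of them lower, beside 27.8% of all genes lower. On TPM 13 of the 54 were called, 11 of them lower and 2 higher, beside 16.7% of all genes lower and 18.2% higher.

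**Figure D5:**
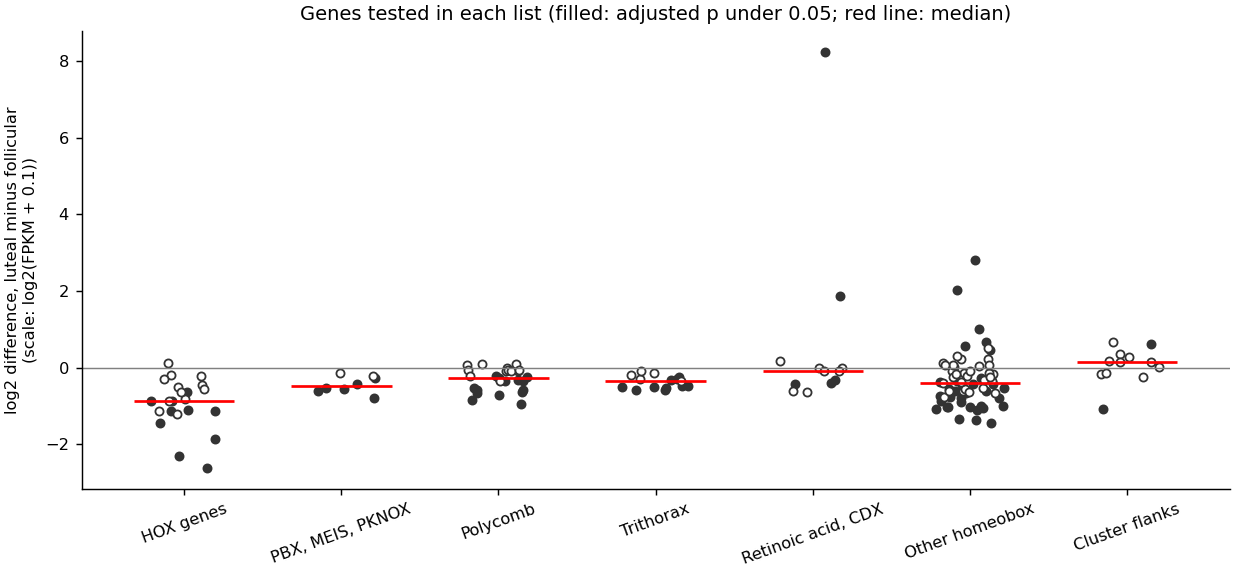
Difference of each tested gene, luteal minus follicular on the scale log2(FPKM + 0.1), for the HOX genes, their cofactors (PBX, MEIS, PKNOX), Polycomb, Trithorax, retinoic acid and CDX genes, other homeobox genes and genes flanking the clusters; filled points have an adjusted p below 0.05 and red lines are medians. The HOX genes had a median of -0.86 and the flanking genes of 0.14, and CRABP1 at 8.23 was the highest point.

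Genes that lie beside the clusters in mammals were listed for comparison. Of 12 tested flanking genes, 1 was lower and 1 higher, against 27.8% and 15.9% of all genes, and the median difference was 0.14. Whether the flanking genes differ from the HOX genes was not tested. The lower was EVX1, a homeobox gene at the posterior end of HOXA, with 0.140, 0, 0.0352, 0.0553 and 0.118 FPKM in the luteal and 0.484, 0.104, 0.191, 0.166 and 0.400 FPKM in the follicular ovaries (difference -1.08, SE 0.34, adjusted p = 0.0258). The higher was CALCOCO2 (0.61, adjusted p = 0.00059). SKAP2 and HIBADH beside HOXA and MTX2 and LNPK beside HOXD were not called, with differences between 0.03 and 0.27. The most abundant flanking gene, ATP5G2, had -0.25 (adjusted p = 0.166).

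The homeobox genes outside the HOX clusters gave a wider comparison, and the plot of lists shows that they moved in both directions. Of 160 such genes 64 were tested, of which 28 were lower and 6 higher in the luteal phase, with a median difference of -0.41, beside 27.8% lower, 15.9% higher and a median of -0.14 over all genes. Cofactor and flanking genes were not taken out of these 160, so the lists can share members. LHX8 (-1.43, adjusted p = 0.0391), an oocyte gene, PHOX2A (-1.37, adjusted p = 0.0274), a gene of autonomic neurons, LHX9 (-1.33, adjusted p = 0.00066), a gene of gonad formation, and SIX4 (-1.11, adjusted p = 0.00047) had the largest negative differences. PRRX2 (2.80, adjusted p = 4.2e-06) and PRRX1 (2.02, adjusted p = 7.1e-06), genes of connective tissue, LHX6 (1.00, adjusted p = 0.00032) and IRX3 (0.68, adjusted p = 0.0441) had the largest positive ones. The most abundant was HOPX, with 65.8 to 105.9 FPKM in the luteal and 88.5 to 131.0 FPKM in the follicular ovaries (-0.44, adjusted p = 0.0325). None of the 22 tested HOX genes was among the genes higher in the luteal phase, and whether this differs from the other homeobox genes was not tested.

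Markers of other ovarian cells were summed as well. The 5 theca markers measured, from the layer around the follicle, summed to 69.9 to 136.3 FPKM in the luteal and 189.9 to 286.9 FPKM in the follicular ovaries, and 4 were lower in the luteal phase. The 9 oocyte markers summed to 8.65 to 20.3 FPKM and 16.7 to 48.2 FPKM, with 5 lower and 0 higher. The 7 smooth muscle markers summed to 581.9 to 1054 FPKM in the luteal and 1312 to 1672 FPKM in the follicular ovaries, and 6 of them were lower in the luteal phase. The 9 stroma markers, all above 0 in every ovary, summed to 3395 to 5688 FPKM in the luteal and 2670 to 3786 FPKM in the follicular ovaries, with 3 lower and 3 higher. Of the 8 granulosa markers 4 were lower and 1 higher, and all 6 endothelium markers were higher. Of the surface epithelium markers 5 were tested, with 2 lower and 1 higher, and their sums overlapped between the phases (13.9 to 29.6 FPKM in the luteal and 11.8 to 44.8 FPKM in the follicular ovaries). Of the blood and immune markers 4 were tested, and limma called 0 of them and gave 0 with an unadjusted p below 0.05. These counts also stand beside 27.8% of all genes lower and 15.9% higher. The part of these cell types in the HOX differences was not tested.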

How the data were processed

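The deposited values are FPKM per transcript and ovary, written by the authors with Cuffdiff 2.1.1 from libraries depleted of ribosomal RNA, strand-specific and read as paired ends of 150 bp. Before that the authors had aligned the reads with HISAT2 2.0.4 and assembled transcripts with StringTie 1.3.1, and the genome build is not given in the sources used here. No ovaries were pooled. Summed FPKM was 452508 to 503276 in the luteal and 492324 to 540124 in the follicular ovaries, and the read depth of each library is unknown, so no counting error can be given. The tables of mRNA (43766 transcripts) and annotated lncRNA (1173 transcripts) repeat values of the transcript table and were not used further.

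Protein-coding FPKM was summed by symbol and tested as log2(FPKM + 0.1), with features of at least 0.1 FPKM in at least 5 ovaries, by limma 3.58.1 in R 4.3.3 (lmFit and eBayes with trend, two-sided). The Benjamini-Hochberg adjustment ran over all genes tested or all transcripts tested, with a threshold of 0.05. The fit was tested on simulated data. Tables and figures were made with Python 3.11.15, pandas 2.3.3, numpy 2.4.6 and matplotlib 3.10.9. All 37 gene identifiers and 49 transcript accessions of the HOX genes matched RefSeq of assembly ARS1.2, which served for names and gene order only, and no sequence or coordinate was used.

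The members and lists were chosen with earlier results of these data known. Values per ovary are given for the most abundant HOX gene of each cluster, for each HOX gene called and for the 3 uncalled HOX genes with the smallest adjusted p. Of the other lists, the called genes with the largest differences (up to 4 per direction) and the most abundant gene are named, and further genes were named after their values were seen (the HOX genes that did not pass the filter, posterior HOXC genes, transcripts and markers). From the symbols that match homeobox names, 3 that are no homeobox genes were left out. Alternatives were another pseudocount, filter, scaling or variance trend, a replicate block and leaving out ovaries. Some genes enter the counts, sums and medians but are not reported here.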

Additional observations from a re-analysis of the deposited data

Results flagged for a closer look

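In 62 groups of 5 ovaries (each tested HOX gene and each tested noncoding transcript of the clusters or listed TUCP in each phase), the highest or lowest ovary was set against the others by the ratio of its gap to the whole range, with a limit of 0.71. Chance alone exceeds this limit in about 1 of 20 groups, and 6 groups exceeded it. For HOXA10, follicular replicate 3 had 0.0129 FPKM against 1.68 to 2.12 FPKM in the other follicular ovaries, and luteal replicate 2 had 0.577 FPKM against 0 to 0.146 FPKM in the other luteal ovaries. For HOXC6, follicular replicate 3 was the highest with 12.3 FPKM against 5.80 to 7.18 FPKM. For HOXB7, luteal replicate 3 was the highest with 0.678 FPKM against 0.312 to 0.408 FPKM. For HOXD8, follicular replicate 2 was the lowest with 11.2 FPKM against 14.1 to 15.2 FPKM. For XR_001919734.1, a transcript of LOC102169699 between HOXB3 and HOXB2, follicular replicate 5 was the highest with 1.72 FPKM against 0.237 to 0.362 FPKM. What sets these ovaries apart was not tested.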

How the results depend on the processing

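HOXA4, HOXA5, HOXA6, HOXA7, HOXA9, HOXB3, HOXC4 and HOXC5 were called under every alternative that tested them, and no alternative called a HOX gene as higher in the luteal phase. The number of HOX genes called was 10 and ranged from 8 to 15 when 1 ovary was left out. A filter of 0.5 FPKM in 5 ovaries left 10 HOX genes to test and 4 calls. These were HOXA10 and HOXC4, and HOXB2 and HOXC6, which were uncalled in the main fit. HOXA4, HOXA5, HOXA6, HOXA7, HOXA9, HOXB3, HOXB6 and HOXC5 did not pass this filter and were not tested there. The number of HOX transcripts called was 6, ranged from 2 to 8 when 1 ovary was left out (2 without luteal replicate 4, 3 without luteal replicate 1 or 5 or follicular replicate 1, 2 or 4), and was 3 with a common median, with quantile normalization and on TPM. With the filter of 0.5 FPKM, limma called 0 of 11 HOX transcripts, 4 of which had an unadjusted p below 0.05. HOX cofactors called were 6, ranged from 3 to 7 when 1 ovary was left out, and were 3 with a common median and 2 on TPM. Of all genes, 19.9% and 16.7% were lower with these 2 scalings. Regulators called were 30, from 22 to 31 when 1 ovary was left out, and 13 on TPM. One alternative was chosen after seeing the data, leaving out follicular replicate 3 and luteal replicate 2 together. It gave 12 HOX genes, 2 cofactors and 19 regulators and turned the difference of HOXD3, uncalled at -0.29, to 0.13. A filter on the mean FPKM, also added after seeing the data, gave 12 HOX genes. The cause of these shifts was not tested, beyond the fewer features or ovaries that the filters and omissions leave. The replicate numbers were also tried as a block. Deviations of luteal and follicular ovaries with the same number correlated at 0.0258 to 0.199, and 2 of 5 luteal ovaries correlated best with their own number, and whether the numbers mark shared goats is not given, so the numbers were not taken as pairs. With this replicate block 13 HOX genes and 2 HOX transcripts were called. Levels below 0.1 FPKM rest on few fragments, and their precision is unknown.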
